A study of Homo sapiens with 12 samples.

Results

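CCL2, CCL20, NFKB1 and MALT1 are genes of chemokine and NF-kappaB signalling, and they were followed in LNCaP, a human prostate cancer line that responds to androgens. They are 4 of the 14812 genes named on the arrays, and each was measured by 1 transcript cluster, the array's unit for 1 transcript region. CCL2, NFKB1 and MALT1 were chosen by their difference between full and charcoal-stripped serum in vehicle-treated cells, so that difference is given here as a description. Which values led to the choice of CCL20 is not recorded, and its p-values are no support on their own. All 4 genes passed the filter on low values, which kept 11105 genes for testing.

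Every sample was LNCaP carrying the control plasmid MSCV-LMP, and RNA was read after 16 h of treatment. The 6 groups held 2 arrays each, namely 1 nM cabazitaxel in full serum and in charcoal dextran treated serum, 1 nM docetaxel in each of the same sera, and the ethanol vehicle in each of the same sera. Charcoal treatment depletes serum of steroid hormones, and both drugs are taxanes, which stabilise microtubules. Whether the replicates came from separate cultures is not stated in the labels. P-values therefore cover only the spread between these arrays, which may be technical.

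Chemokines are secreted proteins that guide migrating leukocytes through receptors on their surface. CCL2 draws monocytes by way of CCR2, and in prostate cancer it is known for attracting macrophages, while CCL20 draws lymphocytes and dendritic cells by way of CCR6. NFKB1 encodes a precursor that is processed into a DNA-binding subunit of NF-kappaB, the transcription factor family that drives many inflammatory genes, CCL2 and CCL20 among them. MALT1 encodes a protease and scaffold that works with BCL10 and CARD proteins upstream of the IKK kinases, which release NF-kappaB from its inhibitors.

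Promoter sequences are shown for CCL20 and NFKB1 because both genes stood lower in full serum, CCL20 without a call, and each window holds a match to a kappaB-type motif. They are RefSeq windows of 300 bases on GRCh38.p14, from 250 before to 50 after the annotated start, and capitals mark the match to GGGAA followed by any 3 bases and CC, searched on both strands. The CCL20 window lies at chr2:227813592-227813891 on the plus strand, and the NFKB1 window at chr4:102501109-102501408 on the plus strand.
CCL20: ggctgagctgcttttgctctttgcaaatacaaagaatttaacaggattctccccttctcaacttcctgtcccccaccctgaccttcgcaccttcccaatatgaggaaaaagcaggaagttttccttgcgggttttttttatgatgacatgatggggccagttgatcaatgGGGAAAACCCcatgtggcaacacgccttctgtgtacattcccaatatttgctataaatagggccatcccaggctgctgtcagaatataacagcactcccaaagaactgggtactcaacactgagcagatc
NFKB1: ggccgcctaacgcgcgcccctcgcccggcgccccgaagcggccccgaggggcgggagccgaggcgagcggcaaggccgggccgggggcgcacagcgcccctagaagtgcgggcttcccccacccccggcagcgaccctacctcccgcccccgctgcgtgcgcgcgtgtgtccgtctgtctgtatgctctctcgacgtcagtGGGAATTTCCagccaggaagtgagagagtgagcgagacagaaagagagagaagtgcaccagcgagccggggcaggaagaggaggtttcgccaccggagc
In CCL20 the match spans positions -80 to -71 from the start, and in NFKB1 positions -49 to -40. The motif was written down after the windows had been read. It occurred in 6.88% of 34796 distinct promoter windows of this length, and the window of MALT1 and another annotated window of NFKB1 held none. Windows were matched for 3 of the 4 genes, without CCL2. A match is a string of letters and not a measured site, and its part in the serum differences was not tested.

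The values are intensities that the authors normalised with RMA, on a linear scale, and the array medians ranged from 22.19 to 22.43. Replicates correlated across genes with r from 0.9863 to 0.9922. All 7 luminal prostate markers that could be read, of 14 listed, were above the median of all values (22.31) on all 12 arrays. The androgen-driven kallikrein genes checked the serum labels, with KLK2 at 260.5 to 364.0 in full serum and 92.0 to 119.4 in charcoal serum, and KLK3, which encodes prostate-specific antigen, at 1109.8 to 1465.9 in full serum and 477.9 to 736.6 in charcoal serum. Over both taxanes KLK2 rose 2.63-fold, KLK3 1.86-fold and KLK4 by 0.39 on the log2 scale (limma adjusted p = 0.000105, 0.00471 and 0.0159), and KLK4 was not called with an assumed offset of 16 subtracted (0.13) or without any 1 of 4 single arrays (0.0672 to 0.084), namely replicate 2 of charcoal cabazitaxel, charcoal docetaxel and full cabazitaxel and replicate 1 of full docetaxel. Of the leukocyte markers, CD14, CD163 and LYZ stayed below that median on every array. CD68 (34.4 to 40.4) and CSF1R (25.5 to 30.5) were above it on all 12 arrays, and TYROBP (22 to 28.7) on 11. The 6 readable markers of that list summed to 147 to 156 in full serum and 146 to 154 in charcoal serum. The 5 readable fibroblast markers summed to 597 to 784 in full serum and 489 to 629 in charcoal serum. Most of each sum came from FN1 (393 to 689), which over both taxanes stood at 0.29 without a call (limma adjusted p = 0.348). VIM (28.9 to 39.1) and THY1 (22.4 to 28.2) were also above the median on all 12 arrays, and DCN and LUM were below it on every array. The part of these markers in the differences between the sera was not tested. The 2 readable endothelial markers summed to 46.1 to 52.9 in full serum and 47.3 to 53.5 in charcoal serum. In these bulk samples a lower level can come from fewer expressing cells or from less RNA per cell, and these cannot be told apart.

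CCL2 fell and MALT1 rose in full serum under the taxanes, and NFKB1 fell as well. The recorded choice used vehicle arrays, but results of all arrays were known when it was made, so the taxane arrays are not independent support. CCL2 stood 1.82-fold lower, NFKB1 1.41-fold lower and MALT1 1.85-fold higher in full serum over both taxanes. These sizes depend on the floor of the scale. With an assumed offset of 16 subtracted, the log2 differences were -1.18 for CCL2, -0.58 for NFKB1 and 1.13 for MALT1, against -0.87, -0.49 and 0.89 without it. CCL20 was 1.25-fold lower and did not pass. Thus 3 of the 4 genes were called, where limma called 119 of 11105 genes (1.07%), 65 of them higher (0.585%) and 54 lower (0.486%) in full serum. Within 1 drug, CCL2 and MALT1 passed under cabazitaxel, where 44 genes were called (0.396%), and CCL2, NFKB1 and MALT1 under docetaxel, where 35 were called (0.315%). Neither drug moved any of the 4 genes past the test.

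**Figure D1:**
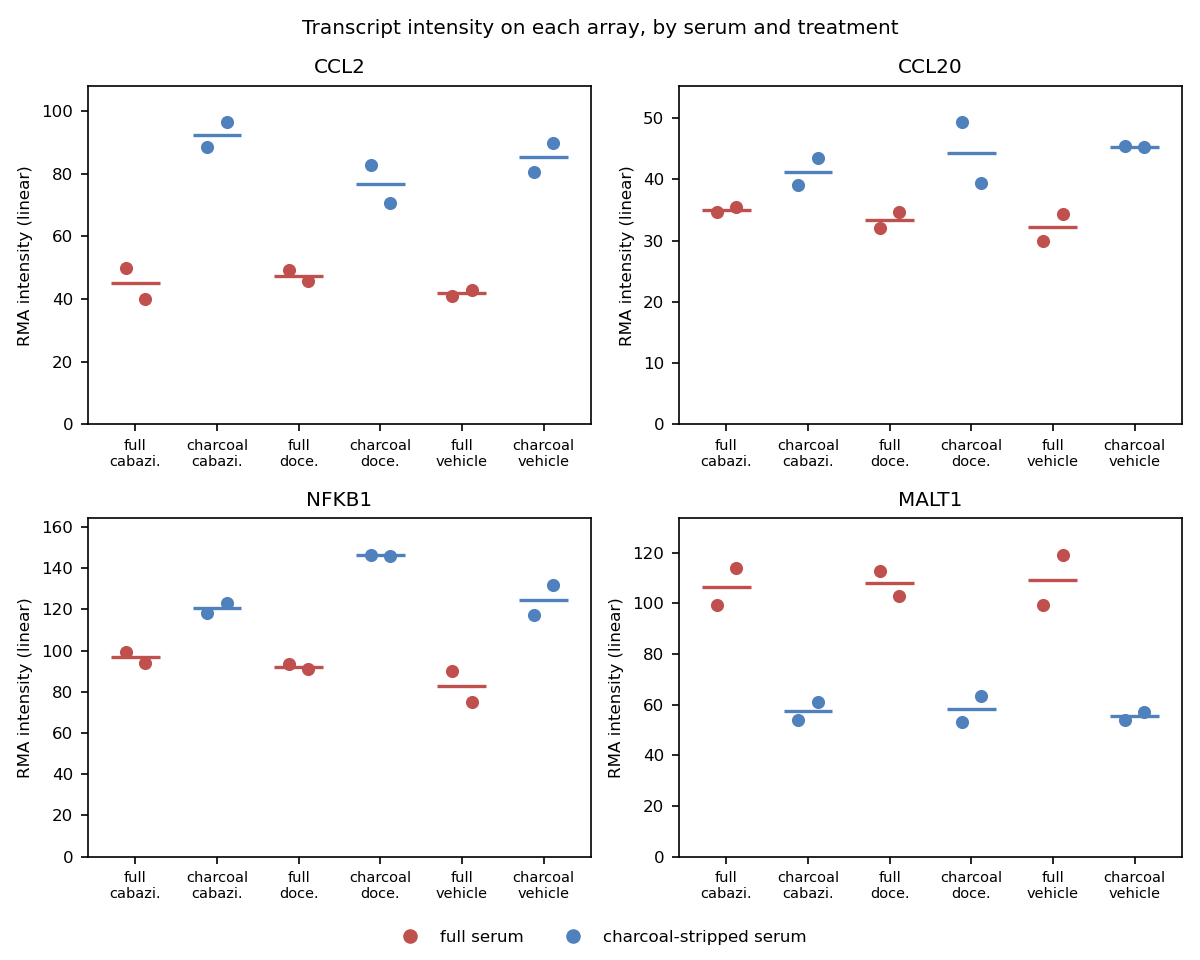
RMA intensity (linear axis from 0) of each gene on each of the 12 arrays, with full serum in red and charcoal-stripped serum in blue; points are arrays and bars are means of 2. In each panel the 6 full-serum arrays lie on 1 side of the 6 charcoal arrays, below them for CCL2, CCL20 and NFKB1 and above them for MALT1.

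CCL2 (transcript cluster 16833204) had intensities of 50 and 40.1 in full serum with cabazitaxel, against 88.4 and 96.4 in charcoal serum with cabazitaxel. With docetaxel it had 49.1 and 45.7 in full serum, against 82.8 and 70.7 in charcoal serum. In vehicle it had 40.9 and 43.0 in full serum, against 80.5 and 89.8 in charcoal serum. All 6 full-serum arrays were lower than all 6 charcoal arrays, from 40.1 to 50 against 70.7 to 96.4. Over both taxanes the log2 difference, full minus charcoal, was -0.87 (SE 0.0816, limma adjusted p = 0.000321, 4 arrays against 4). It was -1.04 under cabazitaxel (95% confidence interval -1.30 to -0.79, limma adjusted p = 0.00264) and -0.69 under docetaxel (-0.94 to -0.44, limma adjusted p = 0.0347). The vehicle difference that helped to choose the gene was -1.02.

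CCL20 (16891774), the ligand of CCR6, had 34.7 and 35.4 in full serum with cabazitaxel, against 39.0 and 43.5 in charcoal serum with cabazitaxel. With docetaxel it had 32.0 and 34.7 in full serum, against 49.3 and 39.4 in charcoal serum. In vehicle it had 30 and 34.3 in full serum, against 45.4 and 45.2 in charcoal serum. The full-serum arrays were again all lower, from 30 to 35.4 against 39.0 to 49.3, but the gap was narrow beside the spread of the docetaxel arrays in charcoal serum. The log2 difference over both taxanes was -0.32 (SE 0.0772) and missed the threshold over all genes (limma adjusted p = 0.0933). With an array left out it ran from -0.40 to -0.24, and was -0.40 without charcoal docetaxel replicate 2, the lower array of that pair. Limma called it under 0 of the 9 other settings (adjusted p from 0.0753 to 0.185). The values sit close to the floor of the scale, and with the offset of 16 subtracted the difference was -0.55, still not past the test (limma adjusted p = 0.185). In vehicle the log2 difference was -0.50, and -0.87 with that offset subtracted.

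NFKB1 (16969300) had 99.4 and 93.9 in full serum with cabazitaxel, against 118.0 and 123.2 in charcoal serum with cabazitaxel. With docetaxel it had 93.3 and 91 in full serum, against 146.6 and 146.1 in charcoal serum. In vehicle it had 90.3 and 75.2 in full serum, against 117.2 and 132.0 in charcoal serum. The sera did not overlap, with 75.2 to 99.4 in full serum and 117.2 to 146.6 in charcoal serum, and the docetaxel arrays in charcoal serum were the highest of the 12. Over both taxanes the log2 difference was -0.49 (SE 0.0668, limma adjusted p = 0.00426). Under docetaxel it was -0.67 (-0.88 to -0.46, limma adjusted p = 0.0137), while under cabazitaxel it was -0.32 (-0.53 to -0.11) and did not pass (limma adjusted p = 0.359). The vehicle difference used in the choice was -0.59.

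MALT1 (16852622) ran the other way, with 99.1 and 114.0 in full serum with cabazitaxel, against 53.8 and 61.1 in charcoal serum with cabazitaxel. With docetaxel it had 112.9 and 103.0 in full serum, against 53.3 and 63.5 in charcoal serum. In vehicle it had 99.1 and 119.2 in full serum, against 54.1 and 57.2 in charcoal serum. Every full-serum array was higher than every charcoal array, from 99.1 to 119.2 against 53.3 to 63.5. The log2 difference over both taxanes was 0.89 (SE 0.0851, limma adjusted p = 0.00035). It was 0.89 under cabazitaxel (0.62 to 1.15, limma adjusted p = 0.00974) and 0.89 under docetaxel (0.63 to 1.15, limma adjusted p = 0.0111), close to the 0.97 in vehicle.

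**Figure D2:**
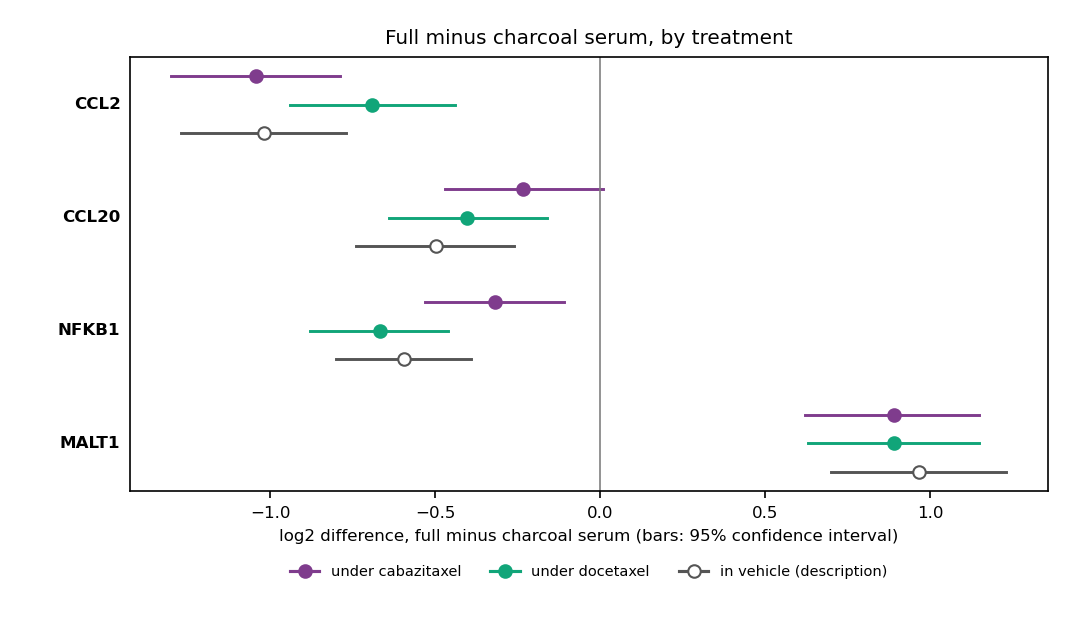
Log2 difference between full and charcoal serum (x axis) for each gene under cabazitaxel, under docetaxel and in vehicle, with 95% confidence intervals of limma; open symbols are the vehicle difference, given as a description. CCL2, CCL20 and NFKB1 lie left of 0 and MALT1 lies right of 0 in all 3 treatments, and the cabazitaxel interval of CCL20 reaches 0.01.

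In the taxane arrays alone, the 4 full-serum and 4 charcoal arrays did not overlap for any of the 4 genes, as held for 6.63% of tested genes in either direction. With the vehicle arrays added, the 6 arrays of each serum did not overlap either. This held for 2.67% of tested genes, 1.23% with full serum higher and 1.43% lower. The vehicle arrays took part in choosing CCL2, NFKB1 and MALT1, so for them this is a description. CCL2, NFKB1 and MALT1 are among the 44 genes (0.396%) called between the sera in vehicle, and CCL20 is not. They were chosen by that difference, so their place among the 44 follows from the choice and is no test. Of these 44 genes, 37 were called in the same direction over both taxanes and all 44 had the same sign. Both comparisons came from the same fit and share its estimate of the spread, so these counts are a description and not independent support. The calls of CCL2, NFKB1 and MALT1 over both taxanes held without any 1 of the 12 arrays and under all 9 other settings tried. Leaving out a vehicle array, or changing only the filter, cluster choice or variance model, cannot move these estimates and alters only their p-values. The number of genes called over both taxanes was lower without single arrays, at 62 without charcoal docetaxel replicate 2, 69 without full cabazitaxel replicate 1, 71 without full cabazitaxel replicate 2, 73 without full docetaxel replicate 1 and 64 without full docetaxel replicate 2.

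Within 1 drug, the call of CCL2 under cabazitaxel held without any 1 of the 12 arrays (adjusted p from 0.00319 to 0.0343) and under all 9 other settings, while the other calls were lost without some arrays. Under cabazitaxel MALT1 had an adjusted p of 0.082 without charcoal cabazitaxel replicate 1 and 0.131 without full cabazitaxel replicate 2. Under docetaxel CCL2 and NFKB1 were not called without any 1 of the 4 docetaxel arrays (adjusted p from 0.0947 to 0.299 for CCL2 and from 0.0943 to 0.148 for NFKB1). MALT1 was not called there without charcoal docetaxel replicate 1 (0.0943), full docetaxel replicate 1 (0.176) or full docetaxel replicate 2 (0.079). The number of genes called under cabazitaxel was 16 and 17 without replicate 1 or 2 of charcoal cabazitaxel, 19 and 9 without replicate 1 or 2 of full cabazitaxel, and 26 to 29 without any 1 of the docetaxel or charcoal vehicle arrays. Under docetaxel it was 21 and 12 without replicate 1 or 2 of charcoal docetaxel, and 7 without either full docetaxel array. Leaving out an array outside the groups compared cannot move an estimate within 1 drug, only its p-value. Leaving out an array of the drug compared leaves 1 array on a side, which is assumed to vary like the other groups. The directions of CCL2, NFKB1 and MALT1 were the same in each of these fits. With the offset of 16 subtracted, MALT1 had an adjusted p of 0.0582 under cabazitaxel, and CCL2, NFKB1 and MALT1 had 0.164, 0.154 and 0.0642 under docetaxel. CCL2 under docetaxel also missed the threshold with no filter on low values (0.0866), with every transcript cluster tested (0.0684) and with the 8 taxane arrays fitted alone (0.0641).

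In the order of group means, all 3 full-serum groups came before all 3 charcoal groups for CCL2, CCL20 and NFKB1, and after them for MALT1. For CCL2 the log2 means ran upward through full serum with vehicle (5.39), cabazitaxel (5.49) and docetaxel (5.57), and then through charcoal serum with docetaxel (6.26), vehicle (6.41) and cabazitaxel (6.53). For CCL2, CCL20 and MALT1 the arrays of neighbouring groups overlapped within each serum and separated at the step between the sera, which was 0.69 for CCL2, 0.23 for CCL20 and 0.87 for MALT1 on the log2 scale. NFKB1 had a step of 0.32 between the sera. Its groups also separated within a serum, except charcoal serum with cabazitaxel (6.91) and with vehicle (6.96), whose arrays overlapped. In full serum these gaps were small, with intensities of 90.3 (vehicle) against 91 (docetaxel) and 93.3 (docetaxel) against 93.9 (cabazitaxel). How many of all tested genes separate in this way with 2 arrays a group was not counted, and no drug comparison of NFKB1 passed the test. Its lowest group was full serum with vehicle (6.36) and its highest charcoal serum with docetaxel (7.19).

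Whether the serum difference itself depended on the drug was tested as the difference under cabazitaxel minus that under docetaxel. CCL2 gave -0.35 (95% confidence interval -0.71 to 0.01), NFKB1 0.35 (0.05 to 0.64), CCL20 0.17 (-0.17 to 0.51) and MALT1 -0.00 (-0.37 to 0.37). None passed (limma adjusted p = 1 for each), although NFKB1 had an unadjusted p of 0.0244 and CCL2 of 0.0542. Limma called 0 of 11105 genes in this comparison (0%), and 402 (3.62%) had an unadjusted p under 0.05.

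Each taxane was compared with the vehicle over the mean of the sera, a measure that does not depend on the vehicle difference between the sera. With cabazitaxel the log2 differences were 0.11 for CCL2 (-0.07 to 0.29), -0.01 for CCL20 (-0.18 to 0.16), 0.09 for NFKB1 (-0.05 to 0.24) and 0.01 for MALT1 (-0.18 to 0.19). With docetaxel they were 0.01 for CCL2 (-0.17 to 0.19), 0.01 for CCL20 (-0.16 to 0.18), 0.20 for NFKB1 (0.05 to 0.34) and 0.03 for MALT1 (-0.16 to 0.21). NFKB1 with docetaxel had the smallest unadjusted p of these 8 values, 0.0128, and did not pass (limma adjusted p = 0.757). The intervals leave room for changes of up to 0.34 on the log2 scale, below the serum differences of CCL2 and MALT1. Both drugs were read against the same vehicle arrays.

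Limma called 0 genes with cabazitaxel (0%) and 0 with docetaxel (0%), although 520 genes (4.68%) with cabazitaxel and 672 (6.05%) with docetaxel stayed below an unadjusted p of 0.05. The methods' t-test on the same values gave 450 genes with cabazitaxel and 546 with docetaxel at that unadjusted level, and 0 for each after Benjamini-Hochberg adjustment. As run here, the t-test pooled both sera without a serum term, so the serum difference entered its spread. For genes that differ between the sera, such as CCL2, NFKB1 and MALT1, it could hardly show a drug change. Within 1 serum, differences from vehicle are values only, because those vehicle arrays were used in choosing CCL2, NFKB1 and MALT1. NFKB1 stood at 0.23 with cabazitaxel in full serum, -0.04 with cabazitaxel in charcoal serum, 0.16 with docetaxel in full serum and 0.23 with docetaxel in charcoal serum. Without full vehicle replicate 2, the lower of that pair, the full-serum values were 0.10 and 0.03, and without full vehicle replicate 1 they were 0.36 and 0.29.

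**Figure D3:**
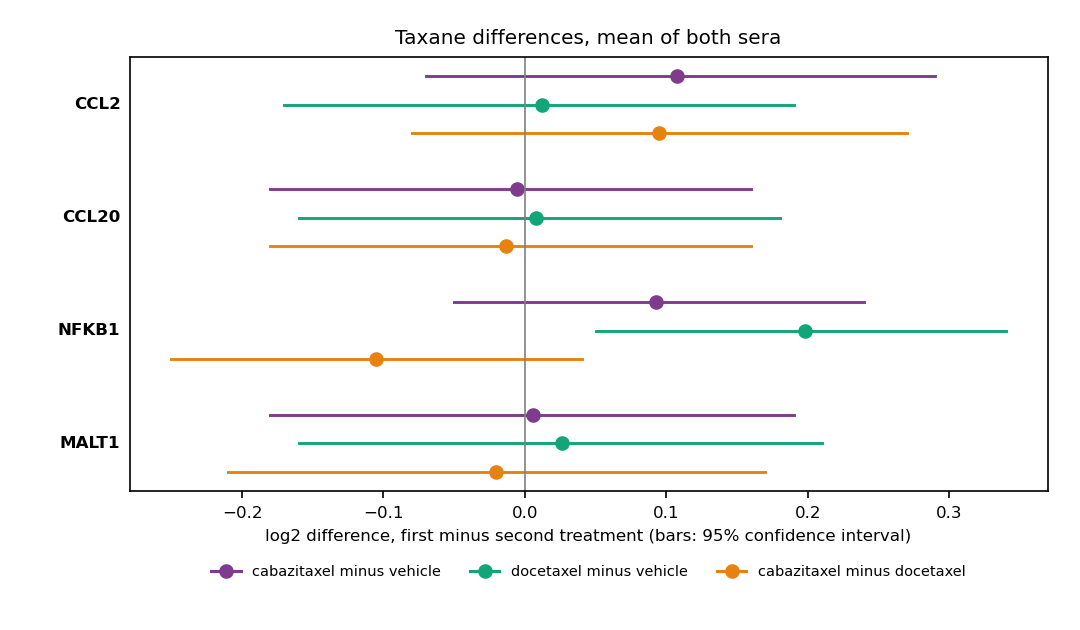
Log2 difference (x axis) of cabazitaxel minus vehicle, docetaxel minus vehicle and cabazitaxel minus docetaxel for each gene as the mean of both sera, with 95% confidence intervals of limma. All intervals cross 0 except that of NFKB1 with docetaxel minus vehicle (0.05 to 0.34), and none of the 12 values passed the test over all genes.

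Cabazitaxel differs from docetaxel in having methoxy in place of hydroxyl groups, and the drugs were compared at the same dose and time, in 3 comparisons with p-values adjusted over all genes in each. As the mean of both sera, cabazitaxel minus docetaxel was 0.09 for CCL2 (-0.08 to 0.27), -0.01 for CCL20 (-0.18 to 0.16), -0.105 for NFKB1 (-0.25 to 0.04) and -0.02 for MALT1 (-0.21 to 0.17). Limma called none of them (adjusted p from 0.958 to 0.993) and 0 genes in all (0%), with 506 (4.56%) at an unadjusted p under 0.05. In charcoal serum cabazitaxel minus docetaxel was -0.28 for NFKB1 (-0.49 to -0.07, unadjusted p = 0.013) and 0.27 for CCL2 (0.02 to 0.52, unadjusted p = 0.0386), and neither passed (limma adjusted p = 0.886 for each). In full serum the same differences were 0.07 for NFKB1 (-0.14 to 0.28) and -0.08 for CCL2 (-0.33 to 0.17), and limma called 0 genes in either serum, with 601 (5.41%) in charcoal and 314 (2.83%) in full serum at an unadjusted p under 0.05. These intervals do not show that the drugs act alike.

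The wider pathway was read from 10 lists of chemokine and NF-kappaB genes. They were ligands, receptors, subunits, inhibitors, kinases with binding proteins, the MALT1 complex, adaptors, inflammatory receptors, MALT1 substrates and NF-kappaB targets. The lists held 158 genes in all, of which the annotation at hand named 117 and 83 were tested. Over both taxanes, ACKR3 was the single gene called among the 79 tested genes other than the 4 members. That 1 call lies near the share over all tested genes, of which 119 of 11105 (1.07%) were called. These 79 genes had a median log2 difference between the sera of -0.01, 34 of them positive and 45 negative, against a median of 0.00 over all tested genes. An unadjusted p under 0.05 was reached by 6 of the 79 genes, and by 10.2% of all tested genes.

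ACKR3 (16892826), an atypical chemokine receptor that binds CXCL12 and CXCL11, fell in full serum. Its intensities were 117.5 and 100.1 in full serum with cabazitaxel, against 187.8 and 160.5 in charcoal serum with cabazitaxel. With docetaxel they were 111.8 and 109.5 in full serum, against 171.4 and 162.6 in charcoal serum. The sera did not overlap, and over both taxanes the log2 difference was -0.64 (SE 0.0671, limma adjusted p = 0.000664). It passed under cabazitaxel (-0.68, limma adjusted p = 0.011) and under docetaxel (-0.59, limma adjusted p = 0.0261), and in vehicle it stood at -0.48.

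Among 22 tested chemokine ligands CCL2 was called lower, and the other 21 lay between -0.32 (CCL20) and 0.13 (CCL3, an inflammatory chemokine). The median of the ligands was -0.02, and 17 of the 39 measured ligands fell under the filter, CXCL8 among them. Of 10 tested chemokine receptors 8 had positive and 2 negative differences, with ACKR3 called lower, XCR1 at 0.12 and CXCR3 at 0.08. The split was 8 and 2 under cabazitaxel, 5 and 5 under docetaxel and 6 and 4 in vehicle. Their median was 0.055, and 0.172 with the offset of 16 subtracted. Log2 means under the taxanes ran from 4.42 to 4.82 for receptors other than ACKR3. For ligands other than CCL2, CCL20 and CXCL16 they ran from 4.41 to 5.02. These lie close to the floor of the scale, so small differences do not show whether those genes changed. CCR2, the receptor of CCL2, was measured and stayed under the filter.

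All 5 NF-kappaB subunit genes were tested, and NFKB1 was called. REL stood at -0.18 (limma adjusted p = 0.305), RELA, which encodes the main activating partner of the NFKB1 product, at -0.11 (limma adjusted p = 0.739), and NFKB2 and RELB at -0.01 each. Of the inhibitors 5 of 12 were tested and 0 were called. The deubiquitinase gene CYLD stood at -0.19, the nuclear cofactor gene BCL3 at 0.12 and the deubiquitinase gene OTUD7B at -0.09 (limma adjusted p from 0.177 to 0.796). NFKBIA and TNFAIP3 were not analysed here.

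The list of IKK and upstream kinases also holds genes of TAK1-binding proteins, TAB3 and TAB1 among them. Of its 15 genes 10 were tested and 0 were called, with TAB3 at -0.25 (limma adjusted p = 0.262), TBK1 at 0.11 and TAB1 at 0.11. Without charcoal cabazitaxel replicate 1, TAB3 stood at -0.34 and passed (limma adjusted p = 0.0461). In the complex of MALT1, its partner BCL10 was the other gene tested, at -0.08 (-0.28 to 0.11, limma adjusted p = 0.844). Of 7 tested genes whose proteins MALT1 is known to cleave, 0 were called, with CYLD as above and ZC3H12A, an RNase that degrades inflammatory transcripts, at 0.11.

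Of 12 tested adaptor and ubiquitin ligase genes 0 were called, with TIRAP at -0.13, TRADD at -0.12 and TRAF3 at 0.11. The 4 tested inflammatory receptors, of 14 listed, had negative differences without a call, TLR9 and IL1RAP at -0.08 each and TLR5 at -0.06. Their log2 means under the taxanes ran from 4.45 to 4.86, close to the floor of the scale. Among 14 tested NF-kappaB target genes 5 had positive and 9 negative differences, and 0 were called. The list held 32 targets, of which the annotation named 18, and 4 of these fell under the filter, CXCL8 among them. Several tested targets sat close to the floor of the scale, so the list does not show whether NF-kappaB targets as a whole changed. LCN2, an iron-scavenging protein of innate defence, stood at -0.18, CD83 at -0.16 and the early response gene IER3 at -0.15 (limma adjusted p from 0.58 to 0.697). The median of the 14 tested targets was -0.01. With cabazitaxel and with docetaxel against vehicle, limma called 0 of the 83 tested genes.

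**Figure D4:**
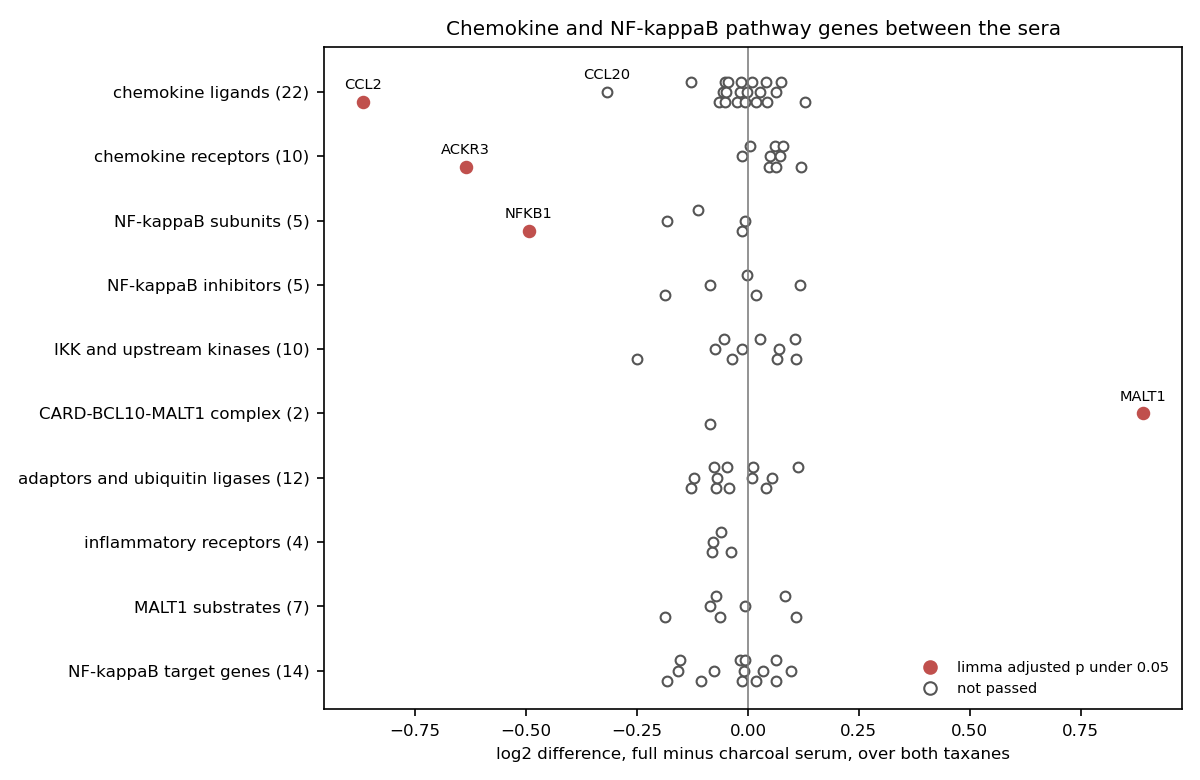
Log2 difference between full and charcoal serum over both taxanes (x axis) for every tested gene of each list (number tested in brackets; a gene may stand in more than 1 list); filled points have a limma adjusted p under 0.05. CCL2, ACKR3 and NFKB1 lie at -0.87, -0.64 and -0.49 and MALT1 at 0.89, and the open points lie between -0.32 and 0.13.

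Genes with a like pattern were sought among 1367 tested genes with characterised symbols whose group means spanned at least 0.3 on the log2 scale, by Pearson r over the 12 arrays. The arrays fall into the 2 sera, so r mostly follows the serum difference. CCL2 ran closest to LASP1 (r = 0.961), CD24 (0.951) and INSIG2 (0.947), and CCL20 to SGPL1 (0.919), LNX2 (0.912) and ADD3 (0.896). NFKB1 ran closest to KDM5B (0.965), MMP16 (0.963) and NIPSNAP3A (0.955), and MALT1 to UAP1 (0.982), STK39 (0.973) and GPR158 (0.972). Within 1 serum the 4 genes showed no common order. Over the 6 full-serum arrays their pairwise r ran from -0.61 (NFKB1 with MALT1) to 0.387 (CCL2 with NFKB1), and over the 6 charcoal arrays from -0.529 (CCL2 with NFKB1) to 0.317 (NFKB1 with MALT1).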

How the data were processed

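RNA of 12 LNCaP samples was amplified, labelled with biotin and hybridised to Affymetrix whole-transcript arrays, per the labels' protocols. The deposited intensities had been RMA-normalised by the authors (submitters' processing notes, with no version). The scale is linear and runs from 17.32 to 6307.3, so weak signals sit on a floor and their changes are compressed. Per the series' design text the authors removed genes of low expression, and the threshold is not given in the sources used here. Precision is limited by the number of arrays.

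The log2 of each of 44629 transcript clusters was taken. The platform annotation named 15835 of them with 1 gene symbol, 0 with several, and symbols were updated through RefSeq gene IDs. The cluster with the highest mean was kept for each of 14812 genes, and a gene was tested where 2 or more arrays exceeded the median over the whole table, which left 11105. Limma 3.58.1 (R 4.3.3) fitted the 12 arrays together, with a mean for each group. P-values are two-sided and adjusted by the Benjamini-Hochberg method over all tested genes within each comparison, and called means an adjusted p under 0.05. The script was tested on simulated data.

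The members and gene lists were chosen with earlier results of these data known. Members are named with every array. Of each pathway list the 3 tested genes with the largest serum difference over both taxanes and every called gene are named, along with the 3 genes most like each member; NFKB2, RELB, CCR2, CXCL8, NFKBIA, TNFAIP3 and the marker genes were named outside this rule. Alternatives changed the filter, scale, normalization, cluster choice, variance model, arrays fitted and replicate block, and left out each array.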

Additional observations from a re-analysis of the deposited data

How the results depend on the processing

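Over 35 main values, 301 of 325 under other settings and 359 of 420 with an array left out kept their direction and their side of the threshold, or stayed within 1.5 times for counts. The cause of the exceptions was not tested. Under cabazitaxel, 25 genes were called between the sera with no filter on low values and 10 with the offset of 16 subtracted (9 to 43 with an array left out), and MALT1 stood at 1.13 with the offset, without a call (0.788 to 0.991 with an array left out). Under docetaxel, 22 were called with no filter, 9 with the offset, 62 with the replicate block and 59 with every transcript cluster tested (7 to 39 with an array left out). CCL2 there stood at -0.691 with no filter, with every cluster tested and with the 8 taxane arrays alone, and at -0.946 with the offset, each time without a call (-0.805 to -0.578 with an array left out). NFKB1 stood at -0.776 and MALT1 at 1.13 with the offset, without a call (-0.686 to -0.65 and 0.764 to 1.02 with an array left out). Over both taxanes, 62 genes were called with the offset, 190 with the replicate block and 208 with every cluster tested (62 to 130 with an array left out), and CCL20 ran from -0.398 to -0.238 with an array left out.

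Small values without a call changed sign. With the offset, CCL20 with cabazitaxel stood at 0.0137 and the MALT1 difference between the drugs' serum effects at 0.00145. With quantile normalization, docetaxel minus vehicle stood at -0.014 for CCL2, -0.00464 for CCL20 and -0.00548 for MALT1, and cabazitaxel minus docetaxel at 0.00256 for CCL20 and 0.0248 for MALT1 over both sera, and for MALT1 at 0.0317 in charcoal and 0.0179 in full serum. With an array left out, cabazitaxel minus vehicle ran from -0.0606 to 0.0726 for MALT1 and from -0.0532 to 0.042 for CCL20. Docetaxel minus vehicle ran from -0.0446 to 0.0689 for CCL2, from -0.0723 to 0.0883 for CCL20 and from -0.0401 to 0.0932 for MALT1. Cabazitaxel minus docetaxel ran from -0.0938 to 0.0667 for CCL20 and from -0.0839 to 0.0429 for MALT1 over both sera, from -0.259 to 0.0619 for CCL20 and from -0.147 to 0.107 for MALT1 in charcoal serum, and from -0.239 to 0.0779 for CCL2 and from -0.122 to 0.0806 for MALT1 in full serum. The MALT1 difference between serum effects ran from -0.128 to 0.126, and TLR5 between the sera from -0.126 to 0.00615. Testing every cluster called 1 of them for the difference between serum effects.

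The labels name nothing that same-numbered arrays share. Their deviations from the group means correlated with r from -0.0486 to 0.326 (median 0.151), over 0.1 in 10 of 15 pairs of groups and not in all, so whether the numbers pair the arrays was not settled. With the replicate block, CCL2 over both taxanes stood at -0.867 (adjusted p = 0.000208), NFKB1 at -0.494 (0.00373) and MALT1 at 0.89 (6.17e-05). Each of the 4 genes had 1 named cluster, so no other cluster of the same symbol could be read.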

Other observations

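Some genes ran opposite to the 4 genes over the 12 arrays, again mostly between the sera. The genes most opposed to CCL2 were STK39 (r = -0.968), the kallikrein protease gene KLK2 (-0.965) and HERC3 (-0.961), and those most opposed to NFKB1 were MANF (-0.931), KIF22 (-0.928) and HPGD (-0.926), which encodes the enzyme that inactivates prostaglandins. MALT1 was most opposed by LASP1 (-0.963), ACKR3 (-0.96) and INSIG2 (-0.955), and CCL20 by PDLIM5 (-0.876), MALT1 (-0.871) and UAP1 (-0.866). These are descriptions over arrays that share their serum groups.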
